A study of Mus musculus with 4 samples.

Results

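Rad21 regions that were called in wild type (WT) pro-B cells and missed in cells without 53BP1 are described here. Rad21 closes the ring of cohesin, the complex that folds chromosomes into loops. 53BP1 binds chromatin around DNA breaks and helps to set how they are repaired. The members were chosen from 4 lists of broad Rad21 peaks. Peaks of all lists on chromosomes 1 to 19 and X were merged when they touched or overlapped, and a member held a peak of both WT lists and of neither 53BP1 knockout list. This gave 760 WT-only regions among 34743 merged regions, or 2.19%. Presence of a peak chose the members, so their number, their WT peak values and their lack of knockout peaks are descriptions and carry no test.

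Of the 4 libraries 2 were labelled 53BP1_KO and 2 WT. Both genotypes were v-Abl transformed pro-B cell lines, in which a viral kinase keeps early B cells dividing. Cells of both genotypes were deficient in RAG1, which cuts DNA in V(D)J recombination, carried an Emu-Bcl2 transgene and had received 3 uM STI-571 over 4 days. STI-571 inhibits the viral kinase and arrests these cells, and Bcl2 keeps them alive. The labels do not say if replicates are separate clones or cultures, so the spread between them may be technical. Rad21 is the target in the titles and in the extraction protocol, whereas the treatment entries mention an antibody against 53BP1. The lists hold no measure of 53BP1, so the genotype rests on the labels, and a region without a knockout peak is a region where the caller listed none, not one shown to lack Rad21.

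Cohesin is loaded onto chromatin, extrudes a loop, and stops mainly at sites bound by the insulator protein CTCF, where Rad21 peaks are strongest. Weaker Rad21 signal is also known at active promoters and enhancers. In pro-B cells loop extrusion draws distant antigen receptor gene segments towards the recombination centre, which is why Rad21 occupancy was profiled in a study of V(D)J recombination. No genome or annotation of the build of the files, mm9, was used here, so the regions below have coordinates but neither genes nor sequence. Those coordinates are 1-based mm9 positions.

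The knockout lists held 25145 and 22792 peaks and the WT lists 21971 and 23029, and read depth per library is unknown. In the second knockout list 16.5% of peaks reached a −log10 q of 5, against 25.9% to 27.7% in the other 3, so it listed fewer strong peaks.

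The number of WT-only regions was set beside the regions that were called in exactly 1 knockout and 1 WT list, and so hold 1 library of each genotype. These 4 mixed classes held 849 regions (2.44% of all) for the first knockout and first WT list, 1009 (2.9%) for the first knockout and second WT list, 474 (1.36%) for the second knockout and first WT list, and 738 (2.12%) for the second knockout and second WT list. The 760 WT-only regions lay inside this range and close to its mean of 767.5 ± 225 (SD, n = 4 classes that share libraries). This likeness depended on the threshold: when peaks below a −log10 q of 5 were left out, 470 regions were WT-only against a mean of 313 in the mixed classes, and when all lists were shortened to equal length the numbers were 916 and 717.5. At a −log10 q of 5 the second knockout list kept the smallest share of its peaks, as given above. The part of that list in these numbers was not tested. As a share of the 18033 regions held by both WT lists the 760 WT-only regions were 4.21%, while the mixed classes were 2.83% to 5.47% of the regions held by both of their lists. A further 2789 regions were in both WT lists and in 1 knockout list only, 1906 of them in the first and 883 in the second. Without the first knockout library 2651 regions were WT-only, against a mean of 1562.5 in the classes of the other knockout list and 1 WT list. Without the second the numbers were 1657 and 1887.5, so the WT-only class was the larger one in the first case and the smaller one in the second. With the first WT library left out, 2917 regions were called in the other WT library alone, against a mean of 4186 in a single knockout library, and with the second left out 2410 against 4394.5.

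Every WT-only region consisted of exactly 1 peak of each WT list. Their folds, the authors' ratio of peak signal to background, were low in both lists. In WT replicate 1 the lowest, median and highest fold were 2.62, 3.75 and 8.38, and in WT replicate 2 they were 2.49, 3.70 and 6.45. These medians stood at percentiles 30.8 and 31.0 of the folds in their own lists. Only 73 members (9.61%) lay above the middle of both lists. The same count was not made for the mixed classes. Members were mostly from the weaker part of each list, and so were regions of the mixed classes. Median fold percentiles in the mixed classes were 27.1 to 28.3 for WT peaks and 29.7 to 38.0 for knockout peaks.

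**Figure D1:**
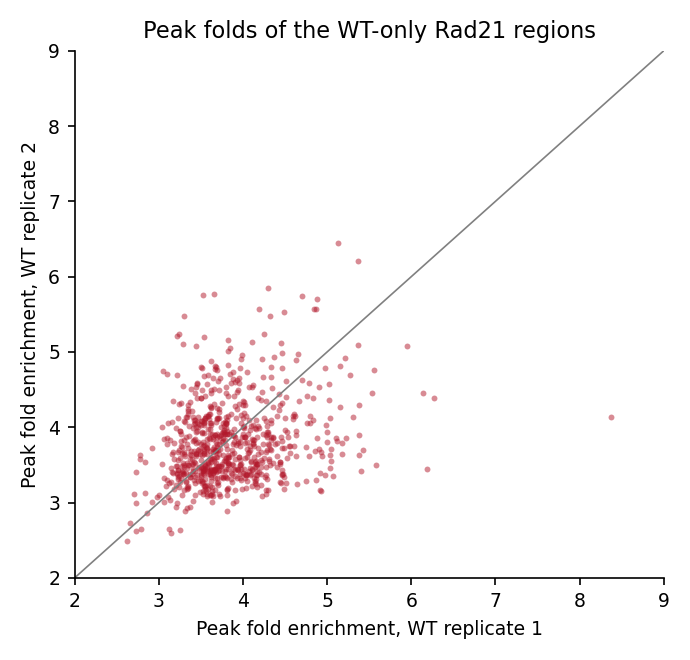
Fold enrichment of the peak in WT replicate 1 (x axis) and WT replicate 2 (y axis) for each of the 760 WT-only regions, 1 point per region, with the line of equal folds in grey. Most points crowd near the medians of 3.75 and 3.70, and a single region stands apart at 8.38 in replicate 1 and 4.14 in replicate 2.

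The folds of the 2 WT lists followed each other loosely. Across the 760 regions Pearson's r was 0.272 and Spearman's rho 0.233, given as a description over regions of the same 2 libraries. In the mixed classes r between the 2 lists was 0.237 to 0.569. Folds were within 1.2 times of each other at 566 members (74.5%), and WT replicate 1 had the higher fold at 411.

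The significance of the WT peaks was low too, with median −log10 q of 2.11 and 2.13 in WT replicates 1 and 2 and minima of 1.02 and 1.05, near the lowest values of the lists. The lower −log10 q of the 2 peaks had a median of 1.74 in WT-only regions, against 1.62 to 1.66 in the mixed classes. It was under 2 in 68.0% of members, against 72.4% to 75.5% in the mixed classes. It was 3 or more in 5.53% of members, against 2.53% to 4.59% in the mixed classes. Its highest value was 4.86 in a WT-only region and 5.02 to 22.5 in the mixed classes. These values are as deposited, and the lists differ: the median −log10 q of all peaks was 3.25 and 3.22 in the WT lists and 3.01 and 2.73 in the knockout lists. By percentile of −log10 q within the list, member peaks had medians of 24.0 and 26.7 in WT replicates 1 and 2. In the mixed classes these medians were 19.1 to 22.4 for WT peaks and 26.3 to 27.4 for knockout peaks.

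Stronger regions of a list pair were missed less often by both other lists. Of 1354 regions in both WT lists whose lower −log10 q was from 1 to 1.5, 226 (16.7%) had no knockout peak. The share was 10.4% from 1.5 to 2, 4.42% from 2 to 3, 0.853% from 3 to 5 (42 of 4926), and 0 of 4416 regions at 5 or more. The same shares in the mixed pairs were 11.8% to 21.4%, 6.39% to 13.0%, 2.17% to 5.16%, 0.235% to 0.868%, and 1 to 5 regions at 5 or more. In each of the first 4 steps the WT pair lay inside the range of the mixed pairs, and in the last it had no region where each mixed pair had at least 1.

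**Figure D2:**
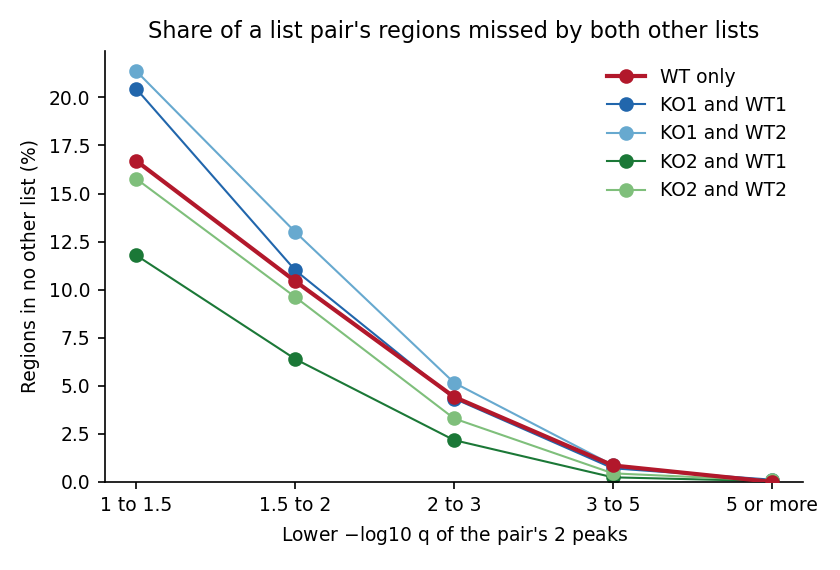
Share of the regions held by both lists of a pair that neither other list held (y axis, percent), by the lower −log10 q of the pair's peaks (x axis), for both WT lists and for the 4 pairs of a knockout list (KO1, KO2) and a WT list (WT1, WT2). All 5 lines fall with strength, and the WT pair runs between the mixed pairs from 16.7% in the weakest step to 0.853% in the fourth, and is at 0 in the last, below all 4.

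Members were ordered by the smaller of their WT folds, and the first 9 were as follows. The first, on chromosome 4 at 3018382 to 3018716, had −log10 q of 4.46 and 6.46 in WT replicates 1 and 2 and nearest knockout peaks 7388 and 56192 bp away in knockout replicates 1 and 2. Its folds were 5.37 and 6.20. The second, on chromosome 6 at 30896932 to 30897260, had folds of 5.13 and 6.45 and knockout peaks 35007 and 35257 bp away. The third, at chromosome 1 from 177533278 to 177533982, had folds of 5.36 and 5.10 and knockout peaks 21542 and 21642 bp away. It was the widest of the 9, at 705 bp. The fourth, at chromosome 17 from 79606047 to 79606393, had folds of 5.95 and 5.08 and knockout peaks 95156 and 95006 bp away. In 3 of these 4 both knockout lists had their nearest peak at nearly the same distance, and on chromosome 4 they did not. The region at rank 5, on chromosome 6 at 83576797 to 83577141, had folds of 5.21 and 4.91 in WT replicates 1 and 2, and its nearest knockout peaks lay 27656 and 27546 bp away in knockout replicates 1 and 2. The region on chromosome 1 at 191499384 to 191499701 had folds of 4.88 and 5.70, with knockout peaks 13395 and 25323 bp away. The region on chromosome 10 at 62020499 to 62020801 had folds of 4.87 and 5.57, with knockout peaks 7461 and 7442 bp away. In these 3 the nearest knockout peak was many region widths away. The region on chromosome 9 at 62822242 to 62822508 had folds of 4.84 and 5.57 and knockout peaks 126284 and 126019 bp away. The region on chromosome 5 at 66392670 to 66392994 had folds of 5.16 and 4.82 and knockout peaks 42465 and 42155 bp away. The other 8 of these 9 members were between 267 and 347 bp wide. The most enriched single peak among the members, chosen after its value was seen, lay on chromosome 18 and had a fold of 8.38 and a −log10 q of 11.3 in WT replicate 1, against 4.14 and 2.62 in WT replicate 2.

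The nearest region called in all 4 lists was between 7307 and 125854 bp from the members at ranks 5 to 9. For the chromosome 6 member, the shared region at 83548434 to 83549272 had folds of 4.36 and 3.31 in knockout replicates 1 and 2 and of 3.61 and 4.41 in WT replicates 1 and 2. For the chromosome 9 member, the shared region at 62694903 to 62696387 had folds of 4.99 and 3.62 in knockout and 4.26 and 5.26 in WT libraries. In both cases knockout and WT folds overlapped, and they also did at the shared region nearest to the chromosome 1 member, with 4.54 and 5.33 in knockout and 5.27 and 3.78 in WT libraries. For the chromosome 10 member, the shared region had folds of 3.63 and 3.75 in knockout and 4.80 and 4.08 in WT libraries. For the chromosome 5 member they were 3.23 and 2.83 in knockout and 3.95 and 3.30 in WT libraries. In these last 2 both knockout folds were below both WT folds. At rank 3 this was so too, with 3.88 and 3.69 in knockout and 4.06 and 4.71 in WT libraries. The member at rank 10, on chromosome 16 at 14311403 to 14311733, went the other way. Its nearest shared region had folds of 6.04 and 4.88 in knockout and 4.75 and 4.37 in WT libraries. At ranks 1, 2 and 4 the folds of the genotypes overlapped. Deposited folds were lower in the second knockout list as a whole, with a median of 3.67 against 4.06 to 4.15 in the other lists. By percentile within each list, a different measure, both knockout values were below both WT values at 16.1% of all regions called in all 4 lists. That share is therefore no background for these deposited folds.

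The rule turns on whether a knockout peak touches the WT peaks, and some members lay just inside it. The smallest gap was 2 bp, at chromosome 4 from 115382087 to 115382911, between the member and a peak of knockout replicate 1. The next were 13 bp at chromosome 7 from 139890924 to 139891935 and 14 bp at chromosome 1 from 130000147 to 130000734, also to knockout replicate 1. Just outside the rule, a knockout peak overlapped the WT peaks by as little as 4 bp on chromosome 18 and 7 bp at chromosome 1 from 59758654 to 59759379. Of the 2789 regions with both WT lists and 1 knockout list, 13 rested on an overlap of 50 bp or less, and their median overlap was 323 bp.

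Such near misses were a small part of the whole. The nearest knockout peak, of either list, lay within 500 bp of 26 members (3.42%), within 1 kb of 60 (7.89%) and within 10 kb of 295 (38.8%). In the mixed classes the nearest peak of a list without a call lay within 1 kb of 4.56% to 8.24% of regions and within 10 kb of 30.8% to 41.0%. The median gap was 16770.5 bp to knockout replicate 1 and 21717 bp to knockout replicate 2. No knockout peak of either list was found within 50 kb of 125 members (16.4%). No flanking peak of any list, knockout or WT, lay within 50 kb of 104 members (13.7%), against 12.1% of all merged regions. The count without knockout peaks alone was not made for other classes. Leaving out the 60 members with a knockout peak within 1 kb left 700.

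Width was the first feature that the rule did not name. WT-only regions had a median width of 514 bp, with quartiles of 376 and 705 bp and a full range of 211 to 2006 bp. The mixed classes had medians of 510 to 570.5 bp, and all regions called in all 4 lists had 919 bp. The difference of −28.6 bp from the mean of the mixed medians was smaller than their SD of 31.1 bp. An exact two-sided permutation test over the 6 ways to take 2 of 4 libraries gave p = 0.667, where 0.167 is the lowest p possible, so no comparison of classes here can pass 0.05. This test, also used for distance, density and spacing below, took the distance of the WT-only value from the mean of all 6 classes. They include the class of both knockout lists, with a median width of 555.5 bp, so these p-values do not refer to differences from the mixed mean. Regions wider than 1 kb were 47 (6.18%) of the members and 5.85% to 9.08% of the mixed classes. The peaks themselves had median widths of 350.5 and 347 bp in WT replicates 1 and 2. Mixed regions that included the second knockout list were the wider ones, with medians of 568 and 570.5 bp against 522 and 510 bp with the first, and that list had the widest peaks, with a median of 564 bp against 476 to 512 bp in the others.

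The 2 WT peaks of a member covered much the same bases. They shared a median of 225 bp, or 94.4% of the shorter peak, against 90.8% to 93.2% in the mixed classes. At 673 members (88.6%) the shared part was at least 50% of the shorter peak, and at 7 it was under 10%.

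Distance to the regions called in all 4 lists was measured next. A WT peak that touches a shared region is merged into it, so by the rule no member can touch one. Within 1 kb of a shared region lay 11 members (1.45%), while 0.849% of shared regions lay that near to another shared region. A further 118 members (15.5%) lay between 1 and 10 kb, 332 (43.7%) between 10 and 50 kb, 239 (31.4%) between 50 and 200 kb, and 60 (7.89%) farther away. The mixed classes had 0.595% to 2.11% within 1 kb, 44.4% to 51.5% between 10 and 50 kb and 22.6% to 28.2% between 50 and 200 kb. The median distance was 34380 bp for WT-only regions and 27099 to 36302 bp for the mixed classes, and 30225 bp from one shared region to the next. WT-only regions thus lay 3190 bp farther away than the mean of the mixed medians, with an SD of 3839 bp among those medians and an exact permutation p = 0.5. The 760 members had 719 different nearest shared regions.

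**Figure D3:**
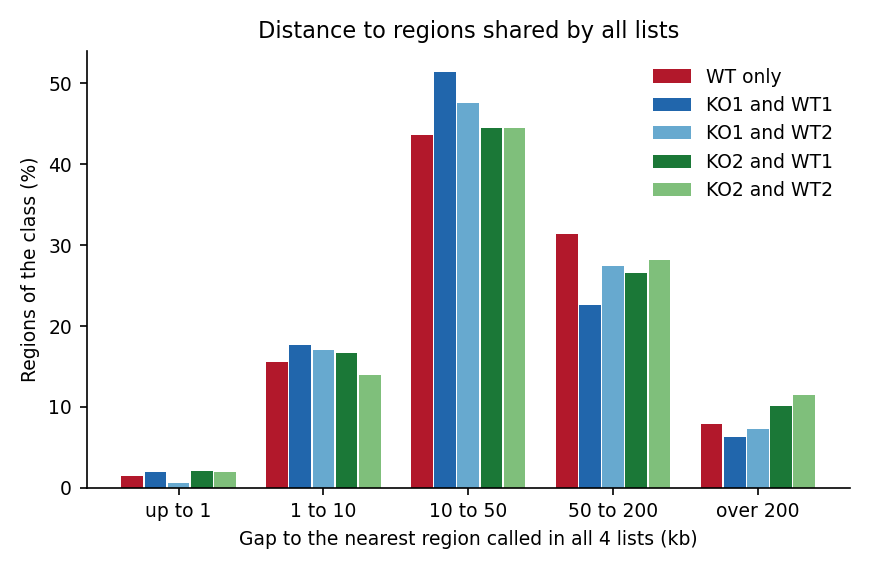
Share of regions (y axis, percent) by the gap to the nearest region called in all 4 lists (x axis, kb), for WT-only regions and the 4 classes of 1 knockout (KO1, KO2) and 1 WT list (WT1, WT2). In every class the step from 10 to 50 kb is the fullest, with 43.7% of WT-only regions.

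Some members were over 1 Mb from any shared region. The most remote was on chromosome X at 22905245 to 22905593, where the folds were 3.88 and 4.64 in WT replicates 1 and 2. The nearest shared region was 2507777 bp away and the nearest peaks of knockout replicates 1 and 2 were 237143 and 2507777 bp away. On chromosome 8 the member at 45111320 to 45111870 had no other merged region within 200 kb, and its nearest peaks of knockout replicates 1 and 2 were 1427803 and 1210582 bp away. On chromosome 3 the members at 17734214 to 17735197 and 17949226 to 17950254 were both over 1 Mb from the same shared region. Their nearest peaks of knockout replicate 2 lay 9002 and 224014 bp away, and their folds were 4.03 and 3.60 for the first and 4.93 and 3.62 for the second in WT replicates 1 and 2.

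The nearest region of any class was one called in all 4 lists for 36.8% of members, against 38.6% to 41.2% in the mixed classes. It was a region of a single knockout list for 23.8% of members, against 19.6% to 20.7% in the mixed classes. Of all merged regions, 20.0% were themselves regions of a single knockout list, which is not a share of nearest neighbours. For 12.6% it was a region of a single WT list, against 10.4% to 11.4%. No test was made of these shares.

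The number of Rad21 regions around members was inside the range of the mixed classes. A median of 10 other merged regions lay within 200 kb of a member, the same as over all merged regions, and 9 to 11 in the mixed classes (exact permutation p = 1). Grouped by 1 Mb windows, WT-only regions were 2.72% of the regions in windows of 1 to 4 regions, 2.66% in windows of 5 to 14, 2.05% in windows of 15 to 29 and 2.01% in windows of 30 or more. The mixed classes covered ranges around these values, for example 1.41% to 3.16% in the sparsest and 1.38% to 2.83% in the densest.

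By the median gap and by its ratio to the mean gap, spacing of the members was inside the range of the mixed classes. Successive WT-only regions on a chromosome were a median of 1587671.5 bp apart. The ratio of median to mean gap, used to compare classes of different size, was 0.483 for WT-only regions and 0.434 to 0.560 for the mixed classes (exact permutation p = 0.833). The smallest mixed classes, of 474 and 738 regions, had the highest ratios, 0.540 and 0.560, and dependence of the ratio on class size was not tested. Between successive members lay a median of 27 other merged regions, and 19 of 740 successive pairs had none between them. Gaps of up to 100 kb made up 6.35% of gaps, against 5.51% to 9.30% in the mixed classes. Those of up to 10 kb made up 0.541% (4 gaps), below the 0.603% to 0.836% (3 to 8 gaps) of the mixed classes. Members did occur in small groups: 128 windows of 1 Mb held 2 or more, and 3 windows held 4, which was the most. The mixed classes, which differ in size, had 67 to 216 windows with 2 or more. Their fullest windows held 4 to 6 regions.

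The closest pair lay on chromosome 4 at 132648111 to 132648584 and 132652509 to 132652963, 3924 bp apart. Its folds in WT replicates 1 and 2 were 3.73 and 3.09 at the first and 4.30 and 3.17 at the second. On chromosome 2, the members at 165773454 to 165774550 and 165780075 to 165781187 were 5524 bp apart, in a window from 165 to 166 Mb that held 4 WT-only regions. That window held 23 and 19 regions with a peak of knockout replicates 1 and 2 and 26 and 30 with a peak of WT replicates 1 and 2. The 4 WT-only regions add to both WT numbers by the rule itself, and without them the WT numbers were 22 and 26, which overlap the knockout numbers. At the other extreme, 56.5 Mb of chromosome X between 48278599 and 104772989 held no member among 280 merged regions. That gap of 56494389 bp was wider than the widest gap of each mixed class, 33177804 to 49491561 bp.

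Members were found on all 20 chromosomes, from 19 on chromosomes 15 and X to 66 on chromosome 1. Chromosome 1 carried 8.68% of them, chromosome 6 carried 7.24%, chromosome 8 carried 5.79%, chromosome 9 carried 7.11% and chromosome 12 carried 5.39%, each above all 4 mixed classes. Chromosomes 15 (2.5%), 16 (2.63%), 17 (4.08%) and 19 (2.63%) were below all 4. WT-only regions were thus the highest or lowest of the 5 classes on 9 chromosomes, while the mixed classes were so on 6, 6, 12 and 7. Of regions held by both WT lists, WT-only regions were 2.62% on chromosome 15 and 5.47% on chromosome 6, the extremes.

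Chromosomes 5 and 10 behaved differently by list. They carried 11.4% and 9.92% of the regions of the second knockout and first WT list. Of the regions of the second knockout and second WT list they carried 9.35% and 7.72%. Both classes of the first knockout list had 3.57% to 4.26% on each of these chromosomes. WT-only regions were 3.26% and 3.09% of the regions of both WT lists there, below 4.21% overall. Regions of the second knockout list and 1 WT list were 4.74% and 5.95% of their pairs on chromosome 5 and 4.61% and 5.43% on chromosome 10. Regions of the first knockout list and 1 WT list were 3.07% and 3.84%, and 3.15% and 3.56%. The part of the second knockout list's distribution in these chromosome shares was not tested, and 693 members remained without both chromosomes.

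**Figure D4:**
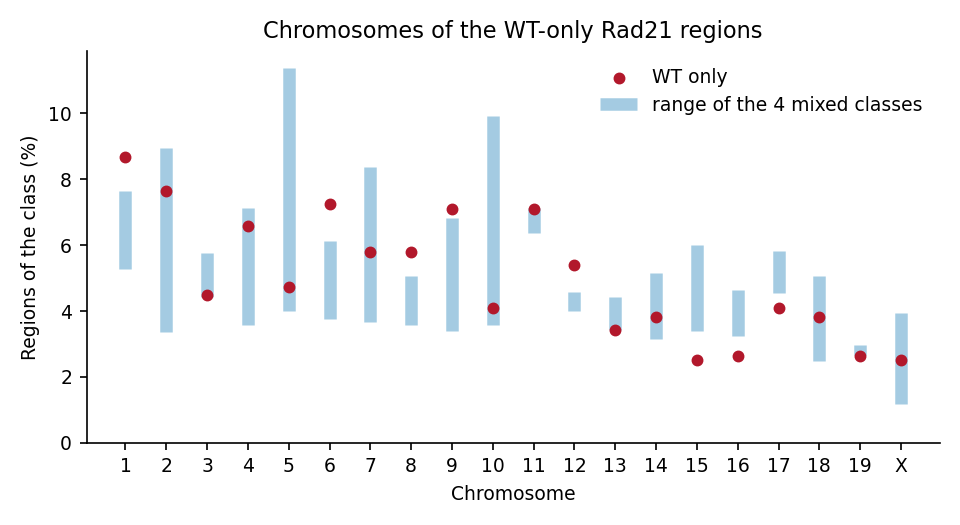
Share of the WT-only regions on each chromosome (points, percent) beside the lowest to highest share in the 4 classes of 1 knockout and 1 WT list (bars). Points lie above the bar on chromosomes 1, 6, 8, 9 and 12 and below it on 15, 16, 17 and 19.

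Along the chromosomes, between the first and last merged region of each, 26.4% of members lay in the low-coordinate part, 33.3% in the middle and 40.3% in the high-coordinate part, of 3 equal parts. All merged regions were divided 29.4%, 32.1% and 38.6%. Mouse chromosomes have the centromere at the low-coordinate end. Within 1 Mb of the outermost regions lay 12 members (1.58%), against 0.813% to 3.38% of the mixed classes. In approximate windows of the receptor loci, Igh (immunoglobulin heavy chain) held 4 members among 140 regions, Igk (kappa light chain) 4 among 152, and the window of the T cell receptor genes Tcra and Tcrd 0 among 91. In the 4 mixed classes, in the order given above, the counts were 0, 1, 2 and 1 for Igh, 2, 3, 1 and 3 for Igk, and 3, 1, 3 and 0 for Tcra and Tcrd. Over all merged regions 2.19% were WT-only, and counts this small were not tested. The members' folds in WT replicates 1 and 2 were at most 5.56 and 4.76, at chromosome 12 from 116933886 to 116934314 in Igh.

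The flanks give a measure in all 4 libraries that the rule did not use directly, though the numbers are not free of it. Neighbouring members add WT peaks only. Within 1 kb the lists without a call held more peaks than the lists with one in every class, as given below, and these peaks are part of the numbers. Within 50 kb of the edges of a WT-only region there were on average 2.02 peaks in knockout replicate 1 and 1.68 in knockout replicate 2, and 1.71 and 1.77 in WT replicates 1 and 2. The first knockout library was high and the second low, so the genotypes overlapped. The means were 1.85 ± 0.244 in knockout and 1.74 ± 0.0428 in WT libraries (SD, n = 2 each), a difference of 0.113 with an exact permutation p = 1 (0.333 is the lowest possible for 2 against 2). Around mixed regions the numbers were 1.82 to 2.399 and 1.72 to 1.99 in knockout and 1.60 to 2.03 and 1.67 to 2.16 in WT libraries, and that of knockout replicate 2 around members was below all 4 mixed classes. Around all merged regions the numbers were 2.07 and 1.84 in knockout and 1.81 and 1.87 in WT libraries. Within the name prefixes of the peaks, which both libraries of a replicate number share, knockout minus WT was 0.316 for replicate 1 and −0.0895 for replicate 2. Per 10000 peaks of each list the numbers were 0.805 and 0.737 in knockout and 0.778 and 0.768 in WT libraries. Without the first knockout library, with members chosen again, the difference was −0.0969.

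Both knockout numbers were below both WT numbers at 24 members (3.16%), against 3.62% of all merged regions. Both were above at 39 members (5.13%), against 7.06% of all. The mixed classes had 2.85% to 4.66% below and 5.75% to 7.32% above. By the gap between the lowest WT and the highest knockout number, 3 neighbouring members on chromosome 2 came first. The one at 165746641 to 165746923 had 2 and 2 flanking peaks in knockout and 4 and 6 in WT libraries. The one at 165773454 to 165774550 had 2 and 1 in knockout and 4 and 6 in WT libraries, and the one at 165780075 to 165781187 had 2 and 1 in knockout and 4 and 5 in WT libraries. All 3 belong to the group of 4 named above, and the WT numbers include peaks of WT-only neighbours.

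**Figure D5:**
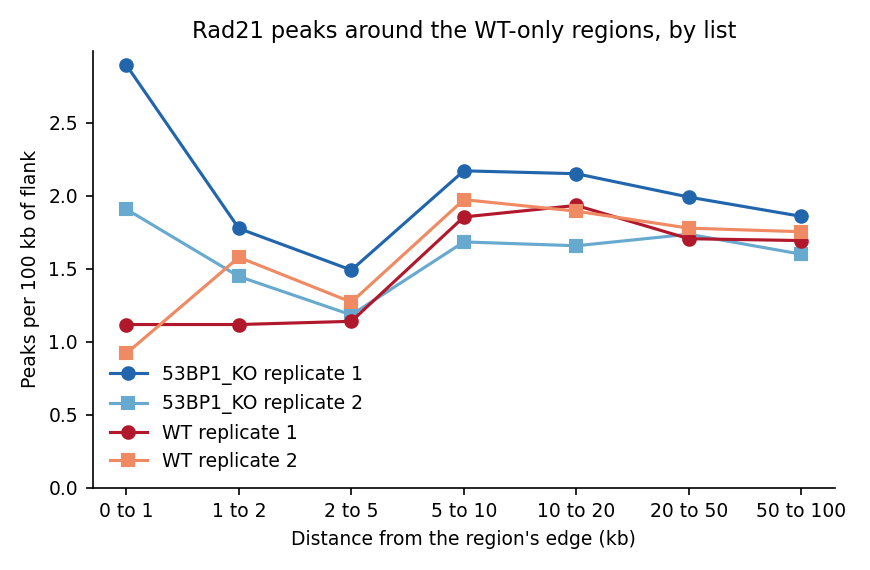
Rad21 peaks per 100 kb of flank (y axis) by distance from the edges of the WT-only regions (x axis, kb) in knockout replicates 1 and 2 and WT replicates 1 and 2. Both knockout lists lie above both WT lists only in the first 1 kb, at 2.89 and 1.91 against 1.12 and 0.921 in WT lists, and beyond 10 kb knockout replicate 1 is highest and replicate 2 at or near the lowest.

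In the first 1 kb the knockout lists held 44 and 29 peaks and the WT lists 17 and 14. In every mixed class, too, the lists without a call held more peaks there than the lists with one. Per 100 regions these were 4.80 peaks of lists without a call and 2.04 of lists with one around WT-only regions, and 2.73 to 5.12 against 1.34 to 2.41 around mixed regions.

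Shared regions next to members were the last readout. Their median percentile of fold within the list was 62.6 and 59.0 in knockout replicates 1 and 2, and 59.7 and 63.8 in WT replicates 1 and 2. The knockout mean of 60.8 ± 2.55 and the WT mean of 61.7 ± 2.88 (SD, n = 2 each) differed by −0.944, with an exact permutation p = 0.667. In the mixed classes the medians were 64.7 to 67.3 and 55.5 to 59.7 in knockout replicates 1 and 2, and 58.7 to 63.0 and 62.3 to 65.9 in WT replicates 1 and 2, so the value of knockout replicate 1 was below all 4 mixed classes and the others were inside their range. Over all shared regions the medians were 66.6 and 58.8 in knockout and 60.8 and 62.9 in WT libraries. For the libraries of replicate 1, which share a name prefix, knockout minus WT was 2.89, and for those of replicate 2 it was −4.78. With members chosen again, the difference was 2.59 once knockout replicate 2 had been left out, 2.34 without WT replicate 2, and −2.46 and −1.01 without knockout replicate 1 and WT replicate 1. Both knockout percentiles were below both WT percentiles at the nearest shared region of 130 members (17.1%), against 16.1% of all shared regions. Both were above at 120 (15.8%), against 18.7% of all. The mixed classes had 16.5% to 19.5% below and 16.5% to 20.3% above.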

How the data were processed

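Per the submitters' processing notes, Bowtie2 2.4.4, SAMtools 1.15.1, deepTools 3.5.1 and MACS2 2.2.7.1 were used with the mouse build mm9 (no parameters and no control library are named). The authors deposited 1 peak list of 9 columns per library, so replicates were not pooled before calling. The deposited fold is a ratio of peak signal to background, the deposited −log10 p and −log10 q are per peak, and the deposited score follows 10 times the −log10 q. The lists give no read counts, so depth is unknown. Peaks on chromosome 1 reach 197182419, beyond the last GRCm38 gene at 195291439, so GRCm38 tables were not used for positions.

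Peaks were merged into regions with Python 3.11.15 and pandas 2.3.3 (overlap of at least 1 bp, or touching), and functions were tested on simulated lists. Gaps run from edge to edge. Percentiles are ranks of fold within a list. Exact two-sided permutation tests used libraries as units; regions are not replicates. The members, lists and receptor windows were chosen with earlier results of these data known. Regions named in the text follow fixed rankings: by the lower WT fold, distance to a shared region, gap to a knockout peak, closest pairs, fullest windows, drop of flanking peaks, and receptor loci. Alternatives were thresholds of −log10 q and fold, equal list lengths, merging and overlap rules, chromosomes 5 and 10, flank and window sizes, a replicate block, and each library left out.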

Additional observations from a re-analysis of the deposited data

How the results depend on the processing

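The number of WT-only regions was 673 to 916 under 6 alternatives, moved to 470 at a −log10 q of at least 5, and ranged from 1657 to 2917 when a library was left out. At that −log10 q the width difference from the mixed classes turned to 21.1 bp, the difference of flanking peaks (knockout minus WT) to −0.0766 and that of the shared-region percentile to 1.73. At a fold of at least 4 the width difference was 1 bp, the distance difference −4.88 bp, the spacing difference 0.0175, the flanking difference −0.153 and the percentile difference 2.42. With equal list lengths the flanking difference was −0.0442, and per 10000 peaks it was −0.00194. Leaving out a library gave −30.8 to −9 bp for width, −3520.5 to 3128 bp for distance, −0.0516 to 0.0680 for spacing, −0.5 to 0.5 regions for density, −0.0969 to 0.256 for flanking peaks and −2.46 to 2.59 for the percentile; there, with a WT library left out, regions of 1 WT list were set against those of 1 knockout list. The cause of these turns was not tested. Of 58 values outside leaving out a library, 47 kept their direction or stayed within 1.5 times, and none of the tests could pass 0.05. Some of the 47 were fixed in advance. The main density difference was 0 and had no direction to keep, so all density values counted, also −0.75 with a window of 50 kb and −2.75 with 1000 kb. The replicate-block values must equal the main ones. In the replicate block, differences were averaged within replicate numbers, which with 1 library each must equal the unpaired 0.113 flanking peaks. Over 2302 windows of 1 Mb, the difference of replicate 1 from replicate 2 had a correlation of 0.0343 between knockout and WT libraries. Such window counts cannot tell whether libraries of the same number, which share a name prefix, were handled together.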
